A study of Arabidopsis thaliana with 21 samples.

Results

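The FT and TFL1 family of Arabidopsis thaliana is described here from its gene models. The family was taken as 6 genes chosen by locus identifier: FT (AT1G65480), TSF (AT4G20370), TFL1 (AT5G03840), BFT (AT5G62040), ATC (AT2G27550) and MFT (AT1G18100). They are 6 of the 27206 nuclear protein-coding genes in the TAIR10 annotation deposited with the series. The series itself holds 21 RNA libraries from plants of ecotype Col-0, grown with 16 h of light per day at 20 °C. Of its 7 groups, 4 came from soc1-ful plants, which are mutant in the flowering genes SOC1 and FUL and whose stems the submitters call woody. These were leaf and 3 stages of the stem, called herbaceous, cambium and wood. The other 3 groups came from wild-type plants, from leaf and from the herbaceous and cambium stages, and every group had 3 libraries. The sources at hand name no alleles for soc1-ful. The deposited annotation holds positions and no value for any library, so expression and sequencing depth are not analysed here and no sentence concerns a difference between plants or tissues.

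Proteins of this family resemble phosphatidylethanolamine-binding proteins and act with partner proteins rather than as enzymes. FT, the florigen, is made in leaf veins in long days, moves to the shoot tip and there, with the bZIP factor FD, turns on floral identity genes. TFL1 binds the same partner and represses those genes, which keeps the shoot tip growing and the inflorescence branching. TSF is a near relative of FT with a similar role. BFT and ATC act as repressors in the manner of TFL1, and MFT is known for its part in seed dormancy and germination.

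Some of the sequences known to separate FT, which promotes flowering, from its repressor TFL1 are shown first. A tyrosine in FT and a histidine in TFL1, at corresponding places, are known to contribute to their opposite actions. The codon for that place lies in exon 2 of all 6 genes and is codon 85 of FT. The last 30 bases of exon 2 are given 5′ to 3′ on the coding strand, at TAIR10 positions, with that codon in capitals.
FT (chr1:24332558-24332587, plus strand): caaccctcacctccgagaaTATctccattg
TSF (chr4:11002058-11002087, minus strand): caaccctcaccaacgagaaTATctccactg
TFL1 (chr5:1025315-1025344, minus strand): tgacccctttctaaaagaaCACctgcactg
BFT (chr5:24923146-24923175, plus strand): taatccttatatgcgtgaaTATctgcattg
ATC (chr2:11774006-11774035, plus strand): tgatccttatctgagagagCACttgcactg
MFT (chr1:6229292-6229321, minus strand): cgagccgaacatgagagaaTGGgtccactg
The marked codon was TAT in FT, TSF and BFT. It was CAC in TFL1 and ATC, and TGG in MFT. BFT, a repressor, thus carried the codon of FT here and not that of TFL1. The codon was number 85 in BFT too, 88 in TFL1, 86 in ATC and 83 in MFT, because the genes differ in the length of exon 1.

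The other stretch shown is from the external loop encoded by exon 4, which is also known to separate FT from TFL1. A glutamine codon of FT in this loop, codon 140, stands against codon 144 of TFL1. The 30 bases shown for each gene end at the same aligned codon, and capitals mark the codon aligned to codon 140 of FT.
FT (chr1:24333561-24333590, plus strand): tatgcaccagggtggcgcCAGaacttcaac
TSF (chr4:11001110-11001139, minus strand): tatgcaccggggtggcgcCAAcagttcaac
TFL1 (chr5:1024853-1024882, minus strand): cctaatatcccttcgagaGATcacttcaac
BFT (chr5:24923578-24923607, plus strand): gcagcgccggaaactagaGAGtgtttcaac
ATC (chr2:11774387-11774416, plus strand): tctgtgccatcttacagaGACcaattcaac
MFT (chr1:6228142-6228171, minus strand): cagcagcctccatcacgaGCCaatttcagc
The marked codons of FT and TSF, CAG and CAA, both stand for glutamine. TFL1 had GAT and ATC had GAC, which both stand for aspartate. BFT had GAG and MFT had GCC, so BFT did not carry the codon of FT at this place. At the marked codons, BFT had the codon of FT in exon 2 and an acidic codon, like TFL1 and ATC, in exon 4. Other codons known to separate FT from TFL1 were not compared, so the marked codons do not describe BFT as a whole.

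All 6 genes were built on one plan of exons. Each had 4 exons, all partly or wholly coding, and 1 isoform. A single isoform was annotated for 21402 of 27206 nuclear coding genes (78.7%). Exon 2 had 62 coding bases and exon 3 had 41 in every member. Exon 1 had 201 coding bases in FT, TSF and BFT, 204 in ATC, 210 in TFL1 and 195 in MFT. Exon 4 had 224 coding bases in FT, TSF and MFT, 221 in TFL1 and ATC, and 230 in BFT. FT and TSF therefore had the same 4 coding lengths, with 528 bp in total. The sum was also 528 bp in ATC, with another split, and it was 534 bp in TFL1 and BFT and 522 bp in MFT. Differences in coding length lay in the first and last exons, 1 and 4, and each was a multiple of 3 bases.

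**Figure D1:**
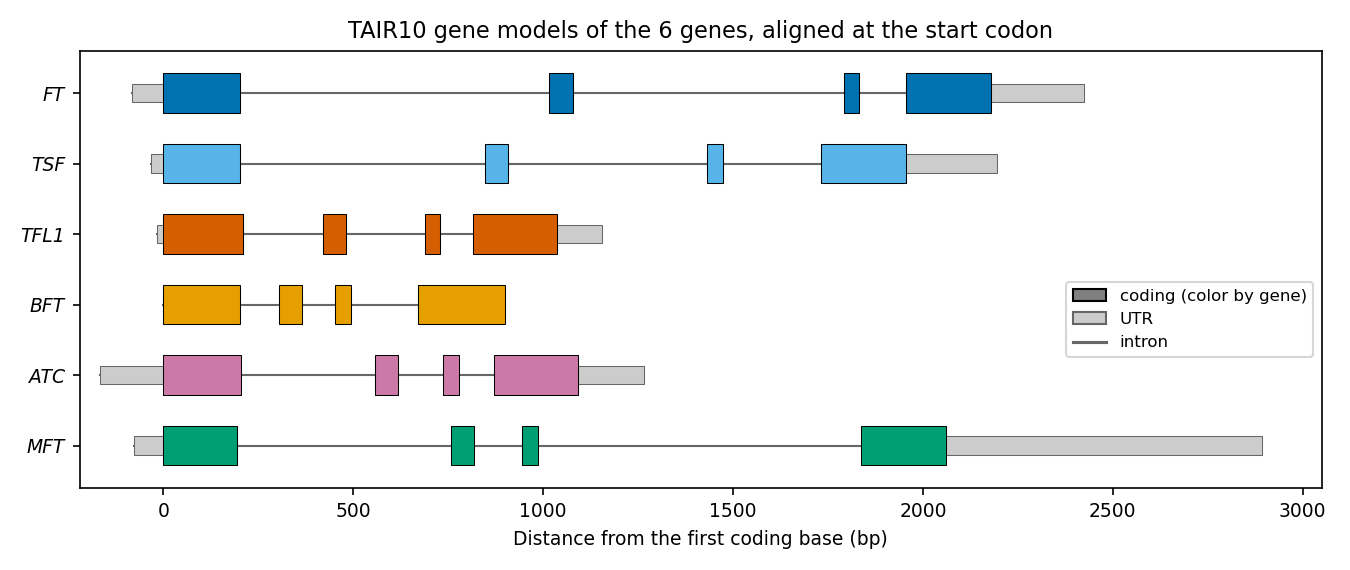
Exon and intron structure of the 6 genes in TAIR10, drawn to scale from the first coding base (x axis, bp). Colored boxes are coding parts of exons, thin grey boxes are UTRs and lines are introns. The colored boxes of the middle exons, of 62 and 41 bp, keep their size between genes. The lines between colored boxes range from 87 to 852 bp, and BFT has no UTR.

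Among all nuclear coding genes, 2461 of 27206 (9.05%) had 4 coding exons in the first listed isoform. Coding exon 2 had 62 bases in 84 of the 20549 genes with at least 2 coding exons (0.409%), and coding exon 3 had 41 bases in 30 of the 16502 genes with at least 3 (0.182%). Both lengths together occurred in 6 genes (0.0221%), which were the 6 members and no other gene. The pair also occurred at the end of the auxin response gene IAA7, as the last of 5 coding exons. With 3 bases of tolerance on each exon the count was 15 genes, of which 9 were not members. The sucrose transporter gene SUC2, with 64 and 44 bases, was the one among these 9 with 4 coding exons. Short middle exons as such were less rare, since 183 of the 2461 genes with 4 coding exons (7.44%) had under 100 bases in each of exons 2 and 3. No test was made, because members of a gene family share their exons by descent.

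The introns cut the reading frame at the same codon bases in each member. Intron 1 lay between codons, intron 2 after the second base of a codon and intron 3 after the first. This order was found in 52 of the 2461 genes with 4 coding exons (2.11%). Every one of the 18 introns began with GT and ended with AG, and none lay in a UTR, which was also true of 82.0% of genes with 4 coding exons. Ranked by the summed difference of the 4 coding lengths from FT, the 5 other members came first, at 0 to 12 bases. The nearest gene outside the family was AT3G07200, at 39 bases, with 201, 58, 71 and 219 coding bases. It was followed by AT5G51610 at 57 bases, AT1G71000 at 68, AT3G50320 at 86 and AT5G48655 at 92. None of these 5 had the intron order of the family.

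Intron length, by contrast, varied widely under the constant exon plan. FT, the promoter of flowering, had introns of 815, 713 and 124 bp, in order from the 5′ end. Its relative TSF had 645, 524 and 258 bp. TFL1 had 210, 206 and 87 bp. BFT had the shortest introns 1 and 2 of the family, with 103, 87 and 176 bp. ATC had 353, 118 and 94 bp. MFT, the seed gene, had 562, 126 and 852 bp. Intron 3 was the longest of the gene in MFT and BFT, and intron 1 in the other 4 members. Among members, intron 1 differed by 7.91 times between the longest and the shortest, intron 2 by 8.20 times and intron 3 by 9.79 times.

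The summed introns came to 1652 bp in FT, 1427 bp in TSF and 1540 bp in MFT, against a median of 472 bp for the 2461 genes with 4 coding exons. For those 2461 genes only introns within the coding sequence were counted, in the sums and at single places, so any UTR introns are left out. The members have no UTR introns. The summed introns of FT, TSF and MFT are ranked next. These sums exceeded those of 97.4%, 95.9% and 96.8% of such genes. ATC had 565 bp, TFL1 503 bp and BFT 366 bp, which exceeded 59.8%, 52.9% and 35.4%. By these sums, 3 genes of the family had long and 3 had ordinary introns, a grouping read from the sums themselves. Single introns did overlap between the groups, as intron 3 had 124 bp in FT and 176 bp in BFT. MFT, 1 of the 3 with long introns, was also the most distant member in protein sequence, as given after the distances. Introns made up 65.9% of the span of FT, 64.1% of TSF and 51.8% of MFT, and 42.9% of TFL1, 40.7% of BFT and 39.5% of ATC. FT and TSF were long through introns 1 and 2, which exceeded those of 94.2% to 97.0% of genes with 4 coding exons. In MFT the long ones were introns 1 and 3, which exceeded 93.1% and 98.7%.

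**Figure D2:**
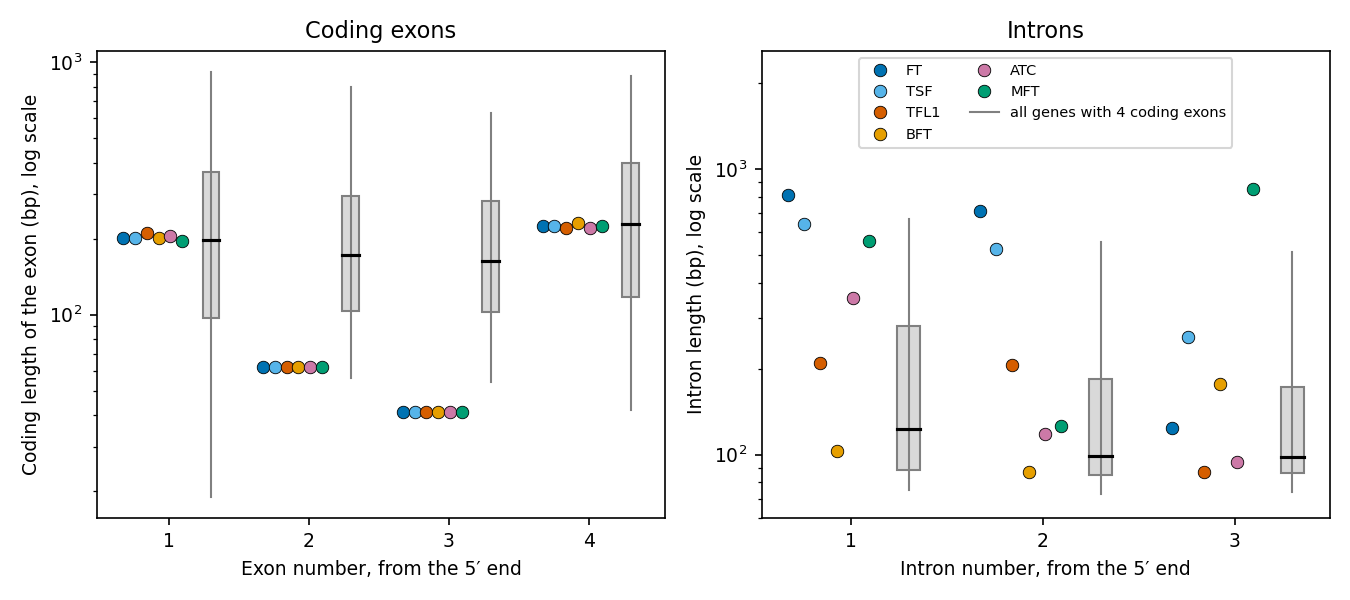
Coding length of each exon (left) and length of each intron (right) by position in the gene, on log axes in bp. Points are the 6 genes, and at the right of each position a box and line show the 2461 nuclear genes with 4 coding exons (line, 5th to 95th percentile; box, quartiles; bar, median). Background introns are those within the coding sequence. Exons 2 and 3 fall on 62 and 41 bp for every member, while introns reach from 87 bp, near the lower quartile of the background, to 852 bp, above its 95th percentile.

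UTRs were annotated at both ends in 5 of the 6 genes, against 18812 of 27206 nuclear coding genes (69.1%). FT had a 5′ UTR of 82 bp and a 3′ UTR of 245 bp. TSF had 31 and 240 bp. TFL1 had 16 and 119 bp, which were longer than those of 3.61% and 11.9% of genes with both UTRs, whose medians were 103 and 207 bp. ATC had the longest 5′ UTR of the family, 166 bp, with a 3′ UTR of 172 bp. MFT had a 5′ UTR of 78 bp and a 3′ UTR of 832 bp, longer than that of 99.2% of genes with both UTRs. BFT had no UTR in TAIR10, a state shared with 6154 coding genes (22.6%), so its ends are those of the reading frame. In the newer TAIR10.1 annotation BFT had UTRs of 8 and 88 bp, and TFL1 had 76 and 260 bp. FT there had an additional isoform with 333 coding bases in exon 1, 660 in all, beside the one of 528 bases.

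Of the 6 genes, FT stood in the emptiest surroundings. It lies on chromosome 1 at 24331428 to 24333934, on the plus strand, and spans 2507 bp. The nearest locus upstream was FAS1, which encodes a subunit of a chromatin assembly factor, at 7363 bp. The nearest downstream was AT1G65481, at 7091 bp. Of all nuclear coding genes, 98.0% had a shorter distance upstream and 99.0% a shorter one downstream. Distances at least as long on both sides were found for 32 of 27206 genes (0.118%), FT included. Within 20 kb on either side lay 8 loci, against a median of 12 for nuclear coding genes. Distant regulatory regions on both sides of FT are known from earlier work, and no measure of their activity is at hand here.

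TSF (chromosome 4, 11000771 to 11002996, minus strand, 2226 bp) had LSD1, a regulator of cell death, 1520 bp upstream. Downstream the transposable element gene AT4G20365 lay at 2055 bp, and the nearest coding gene, RABE1b, at 9061 bp. TSF thus shared the coding lengths of FT but not its distance to the next gene upstream. TFL1 (chromosome 5, 1024641 to 1025812, minus strand, 1172 bp) had AT5G03850 at 2527 bp upstream and AT5G03837 at 957 bp downstream. In TAIR10.1 the nearest locus downstream was AT5G03830, at 4039 bp, so the short distance below TFL1 rests on the model of AT5G03837 in TAIR10. ATC (chromosome 2, 11773251 to 11774681, plus strand, 1431 bp) had a long upstream distance, 4150 bp to AT2G27540, longer than that of 91.1% of coding genes. A tRNA gene, AT2G27560, lay 170 bp downstream of it.

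BFT and MFT were the members with a coding gene nearest to the 3′ end. BFT (chromosome 5, 24922810 to 24923709, plus strand, 900 bp) had AT5G62030 at 1933 bp upstream. OXA1, a gene for a mitochondrial membrane insertion protein, ended 64 bp downstream on the opposite strand. In TAIR10.1, OXA1 reached into BFT and shared 318 bp with it. These made up 50.5% of the exonic bases of BFT and included the 230 coding bases of its exon 4, with 0 bp coding in OXA1. MFT (chromosome 1, 6227217 to 6230188, minus strand, 2972 bp) had the pseudogene AT1G18120 at 1903 bp upstream and the coding gene AT1G18130 at 5706 bp. Its 3′ end lay inside AT1G18090, a coding gene on the opposite strand. A 3′ end inside another locus, of any class and on either strand, was found for 3218 of 27206 coding genes (11.8%). The shared stretch ran from 6227217 to 6227822, over 606 bp or 42.3% of the exonic bases of MFT. All of it was 3′ UTR in MFT, while 499 of the 606 bp were coding in AT1G18090. The libraries were made strand-specific, per the labels, and strand is what tells reads of these genes apart in this stretch. The upstream distance was above 1000 bp for all 6 members, against 50.5% of nuclear coding genes, and downstream the 6 ranged from 0 to 7091 bp.

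**Figure D3:**
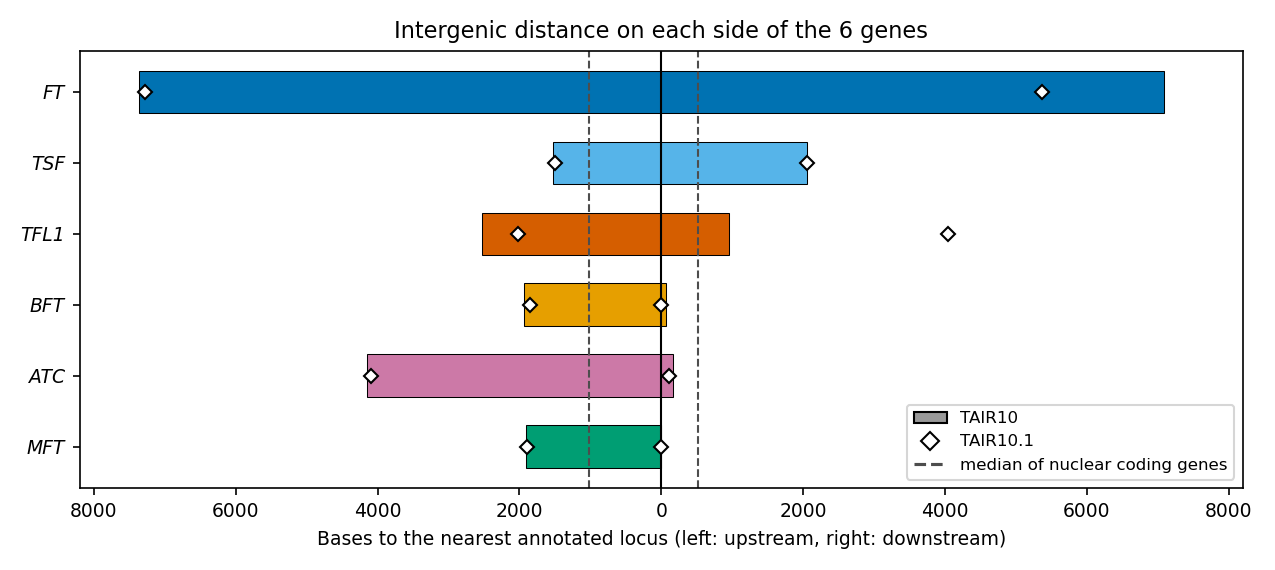
Distance in bp from each gene to the nearest annotated locus of any class, upstream to the left and downstream to the right. Bars are TAIR10, white diamonds TAIR10.1, and dashed lines the medians of nuclear coding genes in TAIR10 (1021 bp upstream, 521 bp downstream). FT has 7363 and 7091 bp in TAIR10, whereas MFT has 0 bp downstream in both annotations and BFT 64 bp in TAIR10.

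Coding sequences were compared after translation, as identical codon translations over aligned codons without gaps. FT and TSF were the most alike of the 15 pairs, with 143 of 175 identical (81.7%). TFL1 and ATC followed with 119 of 173 (68.8%). BFT had 60.1% with TFL1, 59.2% with ATC, 59.2% with FT and 55.2% with TSF. MFT was the most distant member, with 48.8% to 53.5% identity to the other 5. Over all 15 pairs the median was 56.1%.

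FT and TSF differed mostly at the third base of codons, as is usual between related coding genes. Their bases were identical at 90.3% of the first, 92.0% of the second and 64.0% of the third codon positions. The longest stretch without a difference had 29 bases, in codons 38 to 47 of exon 1, and no other pair shared more than 15 bases in a row. A read longer than such a stretch, placed in coding sequence, holds at least 1 difference between FT and TSF.

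Exons 2 and 3 could be laid over each other base by base in all 6 genes, with no gap. Of their 103 columns, 42 held the same base in every member, 28 of 62 in exon 2 and 14 of 41 in exon 3. Just 1 of the shared columns in each exon was at the third codon position. The first 30 bases of exon 3 show this pattern, with capitals where all 6 genes have the same base.
FT (chr1:24333301-24333330, plus strand): GtTgGTgactgAtATcCCtGctacaACtgg
TSF (chr4:11001504-11001533, minus strand): GtTgGTgactgAtATaCCtGccaccACtgg
TFL1 (chr5:1025079-1025108, minus strand): GaTcGTtacaaAcATtCCcGgcacaACaga
BFT (chr5:24923263-24923292, plus strand): GaTgGTgacagAtATtCCcGggacaACcga
ATC (chr2:11774154-11774183, plus strand): GaTtGTtaccgAtATcCCgGggacgACtga
MFT (chr1:6229136-6229165, minus strand): GaTtGTcgtggAtATtCCcGgaggcACaaa
FT and TSF shared one base and TFL1, BFT and ATC shared another in 10 of the 103 columns, 5 in each exon. In exon 3, counted from its first base and with the base of FT given first, these were T2A, C21G, G30A, A31T and A32G. MFT, which belongs to neither side, had the base of TFL1 in 4 of these 5 columns and that of FT in 0. In the 5 columns of exon 2 it had the base of TFL1 in 1 and that of FT in 3.

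BFT was closer to different members in different exons. In exon 2, it matched FT and TSF in 16 of 21 codon translations each, MFT in 15, ATC in 14 and TFL1 in 12. In exon 3 the order was turned, with 12 of 14 for ATC, 11 for TFL1, 9 for FT, 9 for TSF and 8 for MFT. Exon 1 of BFT was most like that of TFL1, with 44 of 66 (66.7%), against 39 of 66 (59.1%) for FT. In exon 4 the values lay close together, from 47.2% for MFT to 54.2% for ATC. Exons 2 and 3 are short, so 1 codon moves these shares by several percentage points. The order of the bases differed in part from that of the codons. In exon 2, BFT shared 46 of 62 bases with FT, 44 with TSF, 42 with TFL1, 42 with ATC and 39 with MFT. In exon 3, it shared 33 of 41 with TFL1, 31 with ATC, 28 with FT, 27 with TSF and 24 with MFT.

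**Figure D4:**
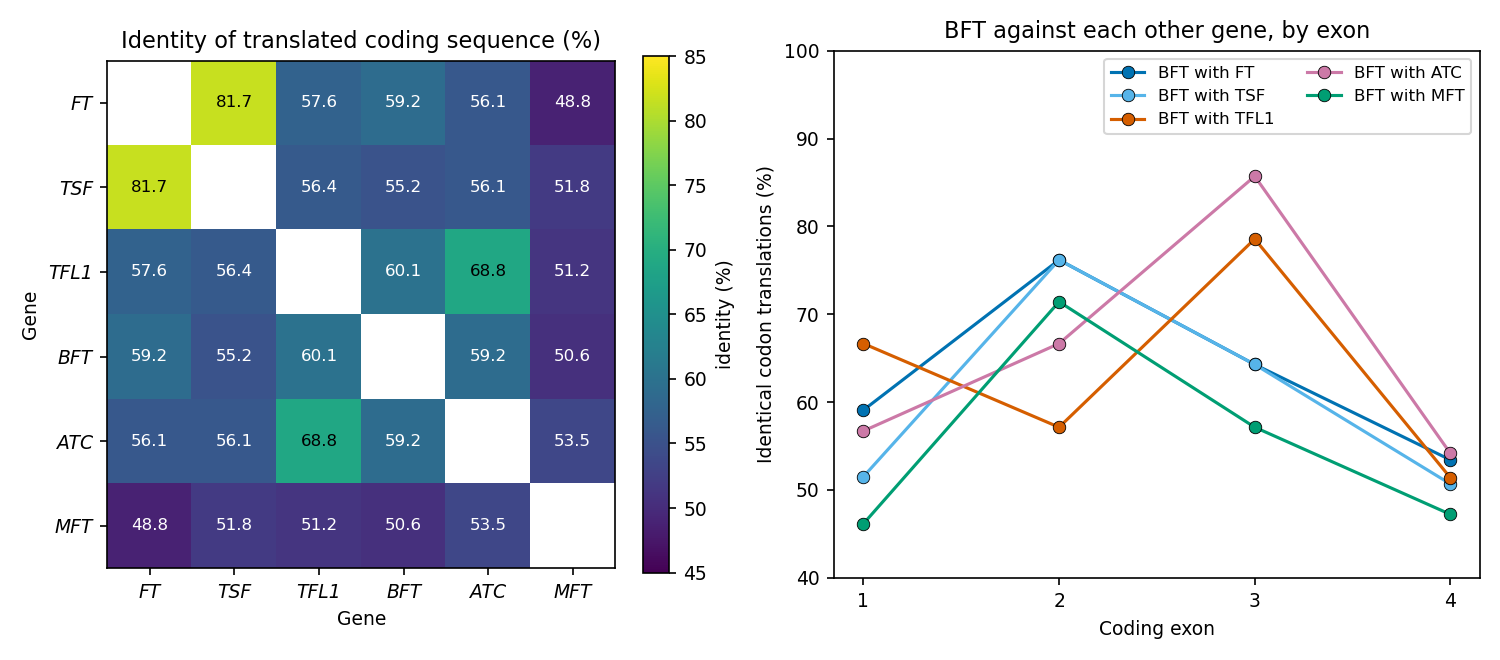
Identity of translated coding sequence for the 15 pairs of genes, in percent (left), and the identity of BFT with each other gene by coding exon (right). FT with TSF (81.7%) and TFL1 with ATC (68.8%) are the highest pairs, and BFT is nearer to FT than to TFL1 in exon 2 and nearer to TFL1 in exon 3.

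The region around the annotated start was searched from 250 bases before it to 50 bases from it, for 4 motifs fixed by name. These were CCACA, which is the core of the element bound by CONSTANS (CO), the day-length regulator of FT, CCAAT, the G-box CACGTG, and the CArG box bound by MADS-box factors. Both strands were read. Starts were those of TAIR10, which can differ from TAIR10.1, as in FT (24331428 against 24331373). CCACA was found 3 times in FT and in none of the other 5 genes, while 34.8% of the windows of nuclear coding genes held it at least once. The share of windows with 3 matches is not given here. The 3 places in FT began 203, 185 and 79 bases before the start, shown here on the plus strand of chromosome 1 with the motif in capitals, as TGTGG where it lies on the other strand.
FT (chr1:24331213-24331242, plus strand): ccagtgtattagTGTGGtgggtttggaata
FT (chr1:24331231-24331260, plus strand): gggtttggaataCCACAaacagaaataaaa
FT (chr1:24331337-24331366, plus strand): caagaaaaagatTGTGGttatgatttcacc
CCAAT was found once each in TSF, TFL1, BFT and ATC and not in FT or MFT, against 50.5% of all windows. The G-box (8.13% of windows) and the CArG box (3.00%) were found in 0 of the 6. A match is a run of letters and no evidence of binding, and in BFT the annotated start is the start codon, so its window lies over coding sequence and the bases before it.

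The family was set beside 16 genes that act with it in flowering. These comprise its partners FD, FDP and FTIP1, its regulators CO, GI, FKF1, CDF1, SVP, FLC, TEM1, TEM2 and FWA as an ectopic repressor, and SOC1, FUL, AP1 and LFY downstream. All 6 members had 4 coding exons, against 0 of these 16, which had from 1 in FDP, TEM1, TEM2 and FTIP1 to 13 in GI, the clock-linked gene GIGANTEA. Over all nuclear coding genes, the share with 4 coding exons was 9.05%. The exon pair of 62 and 41 bases was in 0 of the 16, which was already given by its absence from all genes outside the family. Summed introns in the 16 ranged from 0 bp in TEM1 and TEM2, repressors of FT, to 5025 bp in FLC, the repressor of the vernalization pathway. The median sum was 996 bp in the family and 984.5 bp in the list. Sums of the list include UTR introns, as in FDP (154 bp) and FTIP1 (388 bp), which have 1 coding exon each. They are therefore not on the same measure as the 472 bp given earlier for genes with 4 coding exons. The upstream distance of FT, 7363 bp, was exceeded by 1 of the 16, TEM1, with 8784 bp. CO had the shortest, 426 bp. The downstream distance of FT, 7091 bp, was reached by 0 of the 16, where TEM1 had the longest, 3583 bp, and FKF1, a light receptor of the day-length pathway, the shortest, 51 bp. The family had a median distance of 2230 bp upstream and 563.5 bp downstream, and the list 2975 and 650.5 bp. The downstream median of the family was 802 bp with coding neighbours only and 1080 bp in TAIR10.1, both above the 650.5 bp of the list, for which these settings were not computed.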

How the data were processed

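RNA of stems and leaves was sequenced in 21 libraries, per the labels. The submitters' processing notes name Trimmomatic 0.0.3, TopHat2 2.0.8 and the build TAIR10, without roles. The authors deposited the TAIR10 annotation, which has 590264 lines of 9 columns, with start and end positions in bp counted from 1 and reading-frame phases. A score was present in 0 lines and 0 columns belong to a library, so depth is not analysed here.

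Members and lists were chosen with earlier results of these data known. Lengths are those of the first listed isoform. Distances are bases to the nearest locus of any class, and 0 where another locus reaches past that end. Named genes are the members, their neighbours, genes with the exon pair of FT, the 5 non-members nearest to FT in coding lengths, and the extremes of a list of 16 flowering genes. SUC2, and the sequences printed, were chosen after their values were seen.

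Bases were read from the TAIR10.1 sequence at TAIR10 positions. The lengths of all 5 nuclear chromosomes were the same, and all 6 members gave intact reading frames. The phases in the file equalled those computed for all 24 coding segments. Translations were aligned pairwise with BLOSUM62 (gap opening 10, extension 0.5). Python 3.11.15, numpy 2.4.6, Biopython 1.88 and matplotlib 3.10.9 were used. On simulated data, lengths and distances were recovered for 5000 of 5000 genes. No comparison was tested, since no value is replicated.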

Additional observations from a re-analysis of the deposited data

How the results depend on the processing

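Intron sums, the 62 and 41 base exons and the count of 6 genes with that pair were the same in TAIR10.1. At any place in any isoform 7 genes had the pair, and 15 had it within 3 bases. In TAIR10.1 the median over the 6 members was 531 bp for coding length (528 bp in TAIR10), through the FT isoform of 660 bp. It was 60.5 bp for the 5′ UTR (54.5 bp) and 250 bp for the 3′ UTR (206 bp). These UTR medians also took FT from the isoform of 660 bp, with UTRs of 5 and 310 bp. The other FT isoform had 82 and 246 bp. In every other member the 5′ UTR was longer in TAIR10.1 than in TAIR10. The median distance in TAIR10.1 was 1955.5 bp upstream (2230 bp) and 1080 bp downstream (563.5 bp). With coding neighbours only it was 3338.5 and 802 bp. Median identity was 55.4% over the shorter protein (56.1%), and other gap penalties moved 1 of 15 pairs, TFL1 with MFT, by 1.18 percentage points. Each member had 1 isoform in TAIR10, so other isoforms gave no value, and transposable element genes were already counted as neighbours. No paired analysis was possible because the annotation carries no library values.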

Other observations

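The introns of the family were poor in G and C. The 18 introns held 21.8% to 33.5% G and C, with a median of 27.4%. Of these, 17 lay below 32.0%, the median of introns within the coding sequence of genes with 4 coding exons. The exception was intron 3 of BFT, at 33.5%. Coding sequence of MFT had 51.7% G and C, above the 95th percentile of genes with 4 coding exons (49.7%), and 54.6% at the third codon position. FT had 45.5% and 40.9% in these measures. TSF, which has the coding lengths of FT, had 48.9% and 47.2%.

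Of the loci within 20 kb, FT and TSF had 1 transposable element gene each and the other 4 members had 0. ATC had the most loci in that range, 15, and FT the fewest, 8, which was more than 3.53% of nuclear coding genes had. In TAIR10.1 MFT also shared 23 bp of its exon 3, all coding, with the long noncoding RNA gene AT1G05383 on the opposite strand. FT had the long noncoding RNA gene AT1G08757 at 5371 bp downstream there.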
